A study of Mus musculus with 8 samples.

Results

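Dhx58, Ly6e, Bst2 and Ifitm3 are 4 genes that interferons switch on in many cell types, and they were followed here in the livers of mice without Eps8. They were picked by gene symbol, with their ratios in these livers already known, from 8789 genes named on the array. Of 12367 named spots, 5 belong to them: 2 to Ly6e and 1 to each of the others. All 5 were measured on all 8 arrays. The Eps8KO mice carry a deletion of Eps8, which encodes an actin capping and bundling protein, and were backcrossed to C57BL/6. Livers came from 4 males of 17 weeks without Eps8, and their total RNA was set on glass cDNA arrays of 2 colours against pooled liver RNA of WT males of that age. The labels differ on how many WT mice the pool held. Each mouse was hybridised to 2 arrays, once with its RNA in Cy5 and the pool in Cy3 and once with the dyes exchanged, which gave 8 arrays. The pool is 1 control sample without a spread of its own, so an unusual level in a single WT mouse cannot be told apart from a change in Eps8KO liver. The Eps8KO genotype could not be checked on the arrays, since no named spot belonged to Eps8.

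Interferons are secreted when a cell senses a virus or when immune cells are activated. They bind receptors on neighbouring cells, and kinases of the Jak family then activate transcription factors, which together with Irf9 bind interferon-stimulated response elements in front of their target genes. Interferon gamma acts mostly through gamma-activated sites. Dhx58, also called LGP2, is a cytosolic helicase that binds viral double-stranded RNA and tunes the related sensors. Ly6e is a small protein anchored to the outer cell membrane that hampers the fusion of some viruses and eases the entry of others. Bst2, or tetherin, ties budding virus particles to the cell surface, and in mice it also marks plasmacytoid dendritic cells. Ifitm3 sits in endosomal membranes and hinders the fusion of viruses there. In liver, hepatocytes, Kupffer cells and endothelial cells all answer interferon. In a whole liver sample, fewer cells of a type and less RNA per cell cannot be told apart.

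The names of the spots and the sign of the ratios set what these values mean. The rows of the deposited values were matched to the platform's probe numbers with a shift of 32, which was found from the values themselves. With this shift, 25 probes of acute phase genes had a median log2 ratio of -1.36, against -0.41 for the lowest of 2000 other shifts, so the low ratios of those genes took part in the naming. The sources used here do not state which dye is the numerator. Cy5 over Cy3 was taken, which is the usual order for such arrays and gives Ly6e the sign under which the study lists it, both from the arrays and from quantitative PCR. The direction is taken as likely on these grounds and was not tested, and with the opposite choice every sign would turn. For 19 acute phase genes measured on all arrays, the deposited sign was opposite on the 2 arrays of a mouse in 64 of 76 cases. The naming rested on low ratios of such genes after the signs were turned, which favours opposite signs. This count therefore cannot show on its own that the values follow the dyes. Ly6e was put on the study's list from these same arrays, so its ratio here is not independent evidence of a direction. The PCR of Ly6e is a separate measurement, of which the sign alone is used here. On the Cy5 arrays Ly6e was near 0 with a mean of 0.08, so its sign comes from the Cy3 arrays, with a mean of -1.41. Other genes that the study measured by PCR are not compared.

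The regulatory sequence of 2 of the genes is shown for its matches to the sequence motifs of interferon response. RefSeq promoter windows (build GRCm38.p6, 300 bases each) matched by symbol for Bst2 and Ifitm3. Both strands were searched for GAAANNGAA, the short form of the interferon-stimulated response element, for its long form, which has a further A at the end so that every long match holds a short one, and for TTCNNNGAA, the gamma-activated site. The stretches below run 5′ to 3′ on the strand of the gene, with matches in capitals.
Bst2, chr8:71537473-71537622, minus strand, 150 bases that end just before the start site: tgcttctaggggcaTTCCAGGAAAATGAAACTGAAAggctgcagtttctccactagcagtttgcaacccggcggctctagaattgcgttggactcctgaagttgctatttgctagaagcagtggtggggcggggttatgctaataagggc
Ifitm3, chr7:141010715-141010804, minus strand, from 60 bases before the start site to 30 bases after it: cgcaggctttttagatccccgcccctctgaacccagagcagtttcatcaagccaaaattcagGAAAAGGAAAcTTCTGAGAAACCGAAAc
Bst2 held 2 matches to the long response element, GAAAATGAAA and GAAACTGAAA, at -130 and -124 from the start site, which overlap each other. A gamma-activated site, TTCCAGGAA, starts at -136 and overlaps the first of them. Ifitm3 also held 2, GAAAAGGAAA at 3 and GAAACCGAAA at 20 bases after the start, with the gamma-activated site TTCTGAGAA at 14 overlapping the second. Among 32851 promoter windows, 3.44% held the long response element, 8.56% the short and 8.3% the gamma-activated site. These matches describe letters in the sequence, and no binding was measured.

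All 4 genes had a lower mean level in Eps8KO liver than in the WT pool when both dyes were averaged, but only Dhx58 was lower with either dye. Ly6e, Bst2 and Ifitm3 were low where Eps8KO RNA was in Cy3, and near or above 0 where it was in Cy5. The log2 ratio of Eps8KO over WT was -2.41 ± 0.46 (SD, n = 4 mice) for Dhx58, which is a level 5.31-fold lower. It was -0.66 ± 0.27 for Ly6e (1.58-fold lower), -0.43 ± 0.26 for Bst2 (1.35-fold) and -0.42 ± 0.23 for Ifitm3 (1.34-fold). These ratios chose the genes, so they are given as a description without a test. Each of the 4 was below 0 in 4 of 4 mice, as were 7.07% of the 15455 features measured in all of them, a count that the choice of genes fixes.

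**Figure D1:**
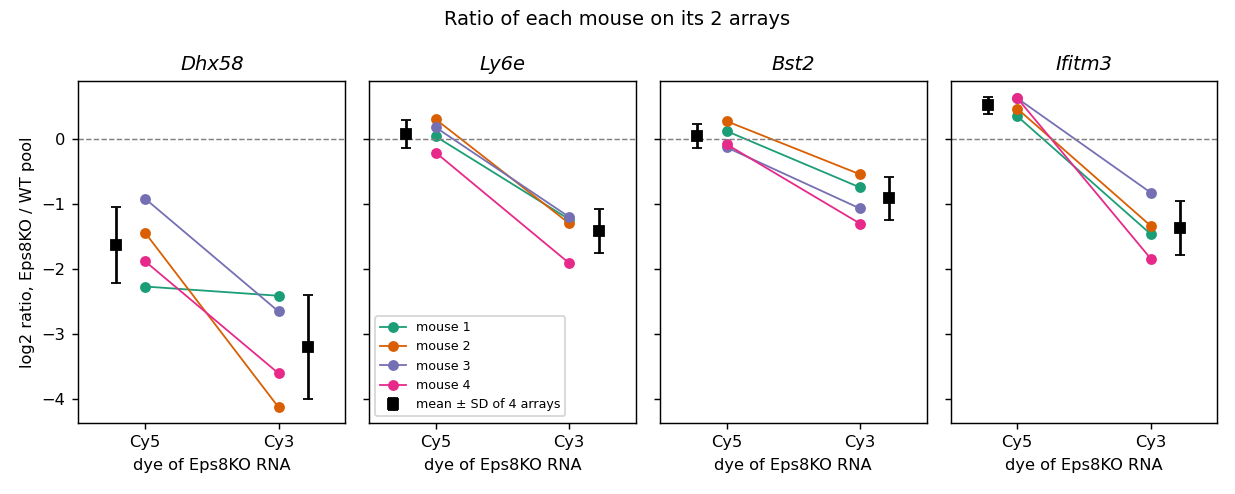
Log2 ratio of Eps8KO over WT pool (y axis) on the 2 arrays of each mouse, by the dye of the Eps8KO RNA (x axis), for the 4 genes. Coloured points joined by a line are 1 mouse, and black squares with bars are the mean ± SD of 4 arrays. Dhx58 lies below 0 on all 8 arrays, whereas Ifitm3 lies above 0 on every Cy5 array and below 0 on every Cy3 array.

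Dhx58 had the lowest ratios of the set. With Eps8KO RNA in Cy5, the log2 ratio was -2.27, -1.44, -0.91 and -1.88 in mice 1 to 4. With Eps8KO RNA in Cy3, it was -2.41, -4.12, -2.65 and -3.60 in the same mice. All 8 arrays were below 0, and the Cy3 values lay below all the Cy5 values, with mouse 1 almost equal on its 2 arrays and mouse 2 farthest apart. A ratio below 0 on all 4 Cy5 arrays was found for 18% of features and on all 4 Cy3 arrays for 12.7%. One below 0 on 8 of 8 arrays was found for 67 of 11727 features measured on all arrays, or 0.571%. In order from the lowest mean ratio, Dhx58 was number 97 of 15455 features and number 46 of 8214 named genes. Its SD between mice was close to the median SD of all features, which was 0.43.

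Ly6e was measured by 2 spots, which gave nearly the same mean. Averaged over the spots, the log2 ratio with Eps8KO RNA in Cy5 was 0.04, 0.31, 0.18 and -0.20 in mice 1 to 4. In Cy3 it was -1.23, -1.29, -1.20 and -1.91. The Cy5 arrays lay around 0 and the Cy3 arrays well below it without overlap, and mouse 4 was the lowest with either dye. The first spot had a mean of -0.64 ± 0.24 (SD, n = 4 mice) and the second of -0.68 ± 0.29. They differed on the Cy5 arrays, where the first had -0.20, 0.27, -0.04 and -0.44 and the second 0.29, 0.34, 0.41 and 0.03. So the second spot was above 0 on all 4 Cy5 arrays and the first on 1. On the Cy3 arrays both were below 0 in every mouse, with means of -1.18 and -1.63.

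Bst2 repeated the pattern of Ly6e with smaller values. In Cy5 its log2 ratio was 0.13, 0.28, -0.12 and -0.08 in mice 1 to 4, and in Cy3 -0.74, -0.54, -1.06 and -1.30. Mice 1 and 2 were thus above 0 in Cy5 and mice 3 and 4 below it, and every Cy3 value lay below every Cy5 value. All 4 genes had this gap between the orientations, as had 9.86% of features, and it is tested below as a dye difference. Averaged over dyes, the mice ranged from -0.13 in mouse 2 to -0.69 in mouse 4. Ifitm3, whose motif matches are printed above beside those of Bst2, was at 0.36, 0.47, 0.63 and 0.63 in Cy5. In Cy3 it was at -1.46, -1.33, -0.82 and -1.84. The Eps8KO signal of Ifitm3 was 1.44-fold above that of the WT pool on the 4 Cy5 arrays and 2.57-fold below it on the 4 Cy3 arrays. The same mice and pool were on both sets, so these values include the dye difference and are not 2 levels in liver. Values above 0 on all Cy5 arrays and below 0 on all Cy3 arrays were found for 5.71% of features. Averaged over dyes, mouse 3 was nearest to 0 at -0.09 and mouse 4 farthest at -0.60.

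Across mice, mouse 4 had the lowest ratio for Ly6e, Bst2 and Ifitm3, at -1.06, -0.69 and -0.60. For Dhx58 mouse 2 was lowest at -2.78, followed by mouse 4 at -2.74. With 4 mice no correlation between the genes was computed. In the order of mean ratios, Dhx58 stood apart, as its highest mouse at -1.78 lay below the lowest mouse of any of the other 3 genes. Ly6e, Bst2 and Ifitm3 overlapped, with mice from -0.49 to -1.06, from -0.13 to -0.69 and from -0.09 to -0.60.

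The dye difference of a spot was measured as the mean of the deposited Cy5 over Cy3 log2 ratios of the 2 arrays of a mouse. An Eps8KO effect cancels in this mean, so it does not rest on the contrast by which the genes were chosen. All 4 genes leaned to Cy5 in 4 of 4 mice, and the mean over mice was above 0 for 4099 of 11686 features. The dye difference was 0.91, 0.90, 0.73 and 1.24 in mice 1 to 4 for Ifitm3, and 0.64, 0.80, 0.69 and 0.85 for Ly6e. For Bst2 it was 0.43, 0.41, 0.47 and 0.61. For Dhx58 it was 0.07, 1.34, 0.87 and 0.86, so mouse 1 had almost none. The spread between mice was small against the mean for Ly6e at 0.74 ± 0.10 (SD, n = 4), Bst2 at 0.48 ± 0.09 and Ifitm3 at 0.94 ± 0.21, and large for Dhx58 at 0.79 ± 0.53.

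With limma over 11686 features, no dye difference of the 4 genes passed an adjusted p under 0.05. The adjusted p was 0.0524 for Ly6e and Ifitm3, 0.068 for Bst2 and 0.103 for Dhx58. Over all features 0 were above 0 and 7 below at that threshold. All 4 genes were above 0 at an unadjusted p under 0.05, as were 9.69% of features. A limma fit of the 8 arrays with a dye term and the mouse as a random block gave an adjusted p of 0.00824 for Ifitm3, 0.011 for Ly6e, 0.0311 for Bst2 and 0.0552 for Dhx58, and it called 5.99% of features above 0. The estimated correlation between the arrays of a mouse was -0.00244, so this fit took the 8 arrays almost as independent. Over the alternatives, adjusted p ranged from 0.00824 to 0.169 for Ifitm3, from 0.011 to 0.169 for Ly6e, from 0.0311 to 0.209 for Bst2 and from 0.0552 to 0.26 for Dhx58.

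**Figure D2:**
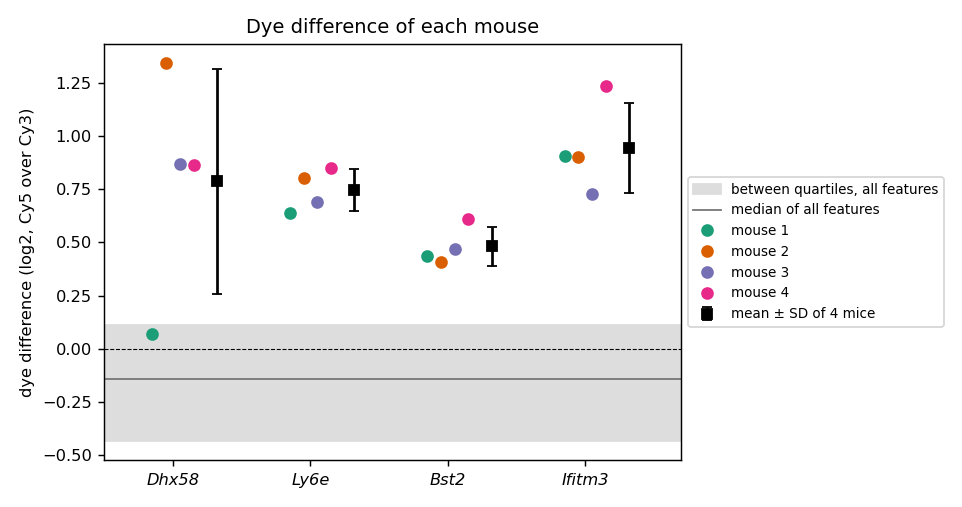
Dye difference, the mean of the deposited log2 ratios of the 2 arrays of a mouse (y axis, Cy5 over Cy3), for the 4 genes (x axis). Coloured points are mice, black squares with bars the mean ± SD of 4 mice, the grey line the median of 11686 features at -0.14 and the band the span between their quartiles. All mice lie above the band for Ly6e, Bst2 and Ifitm3, and mouse 1 lies inside it for Dhx58.

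Hepatocyte markers leaned to the same dye. Their median dye difference was 0.77 over 13 genes, 12 of which were above 0. Over all features the median was -0.14, and 4099 of 11686 were above 0. The acute phase genes leaned to Cy5 too, with a median of 0.55 over 19 genes, 16 of them above 0. On the Cy5 arrays the median ratio of Eps8KO over WT of the hepatocyte markers was 0.91, and on the Cy3 arrays -0.62. Apoa1, the main protein of high density lipoprotein, had a ratio of 1.32 in Cy5 and -0.64 in Cy3, and Ttr, which carries thyroid hormone, of 0.95 and -0.59. Averaged over dyes, these were at 0.34 and 0.18. Ly6e, Bst2 and Ifitm3 thus shared the tilt of these markers, but with lower ratios on both sets of arrays than the markers' medians. The part of the dye in the ratios of the 4 genes was not tested. The deposited values give ratios without intensities, so levels, signal over background and the tissue's identity could not be checked.

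**Figure D3:**
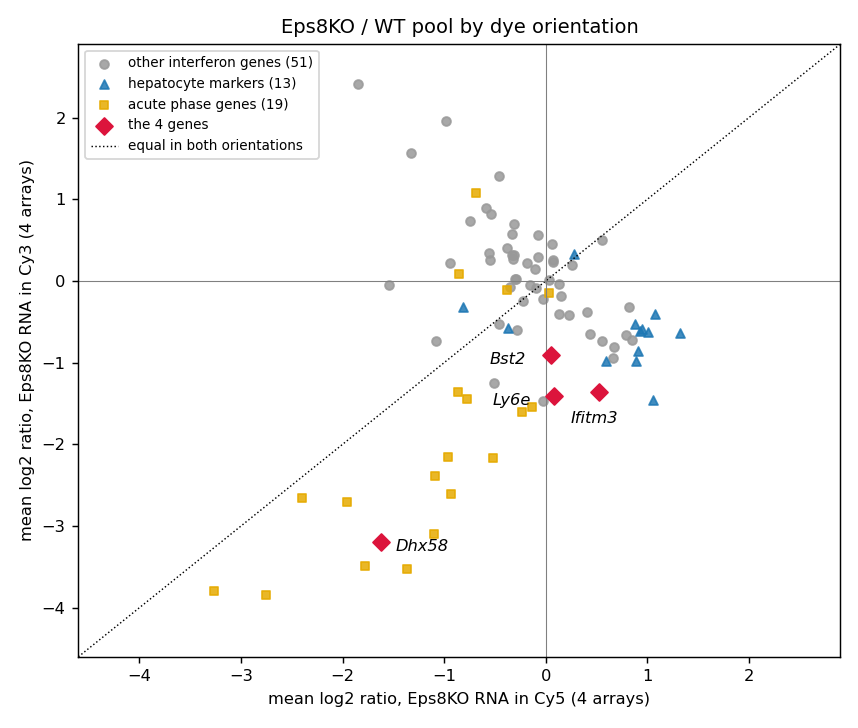
Mean log2 ratio of Eps8KO over WT pool over 4 arrays with Cy5-labelled Eps8KO RNA (x axis) and over 4 with Cy3-labelled Eps8KO RNA (y axis), with 1 point per gene measured on all arrays. Red diamonds are the 4 genes, grey circles 51 other interferon genes, blue triangles 13 hepatocyte markers and yellow squares 19 acute phase genes, and the dotted line marks equal values. Dhx58 lies among the acute phase genes, while Ly6e, Bst2 and Ifitm3 lie below the line near the hepatocyte markers but lower.

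As a group, the other genes of the interferon pathway were centred near 0. Of 158 genes listed as ligands and receptors, signalling proteins, sensors, antiviral effectors, interferon gamma GTPases and antigen presentation, 69 had a value in all 4 mice. With limma, 5 of these 69 (7.25%) were lower and 0 higher at an unadjusted p under 0.05, where 3.09% of all features were lower and 2.15% higher. None of the 69 passed an adjusted p under 0.05, nor did any of the 15455 features. The median log2 ratio of the 69 genes was -0.02, beside 0.02 for all features. On the Cy5 arrays alone, 3 of 58 interferon genes (5.17%) were lower and 4 (6.9%) higher at the unadjusted threshold, beside 12.6% and 4.66% of all features. On the Cy3 arrays alone, 10 of 60 (16.7%) were lower and 7 (11.7%) higher, beside 6.94% and 14.7%. In the fit of 8 arrays with a dye term and the mouse as a random block, 5 of 51 (9.8%) were lower and 2 (3.92%) higher, beside 3.83% and 2.8%.

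Among receptors, 0 of 4 passed the unadjusted threshold in either direction. It was passed by 3.09% of all features as lower and by 2.15% as higher, so 0 in so short a list says little. Ifngr1 and Ifngr2, the chains of the interferon gamma receptor, were at 0.16 ± 0.49 (SD, n = 4 mice) and -0.14 ± 0.38, the highest and the lowest of the list. Among signalling proteins, 0 of 15 passed, which is also near that share, and the median was 0.02. Irf4, a lymphoid transcription factor with values on 7 arrays, was lowest at -0.89 ± 1.23, and Pias1, a SUMO ligase, highest at 0.55 ± 0.77. Irf9, a DNA-binding subunit of the factor that interferon activates, was at 0.12 ± 0.80. Irf7, itself switched on by interferon, was at 0.26 ± 0.48 and Socs1, which damps the Jak kinases and is induced by interferon, at 0.53 ± 0.58. Both lay above 0 as means, on the other side from the 4 genes, without passing the test. On the same side as the 4 genes lay the means of Irf8 at -0.53 ± 1.05, Irf1 at -0.29 ± 1.82 and Stat2 at -0.26 ± 0.93. These did not pass either. Of the 15 signalling proteins, 7 had a mean below 0, as had 7295 of 15455 features.

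Among sensors of RNA and DNA, the functional neighbours of Dhx58, 0 of 7 passed. With 3.09% of all features lower and 2.15% higher, 0 in so short a list says little. Dhx15, a splicing helicase that also senses RNA, was lowest at -0.62 ± 0.63, and Traf6, a signalling adaptor, highest at 0.42 ± 1.84. Trim25, which activates the RNA sensor RIG-I, was at 0.02 ± 0.30. Of 10 other helicases of the DExH type, 0 passed, again near that share, and the median was -0.12. Dhx30, a helicase of mitochondrial ribosome assembly, had the lowest mean at -2.85, but with an SD of 4.38 between mice.

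Among antiviral effectors, 3 of 25 (12%) were lower at an unadjusted p under 0.05 and 0 higher, with a median of -0.09. Over all features, 3.09% were lower and 2.15% higher. The 3 effectors were Ifitm1, Ifitm2 and Ifi27. Of the 25 effectors, 16 had a mean below 0, as had 7295 of 15455 features. Several well known targets of interferon lay close to 0 when averaged over dyes and are given as examples. Ifit3, which binds foreign RNA, was at 0.00 ± 0.21 (SD, n = 4 mice), Oas2, which makes the activator of RNase L, at -0.01 ± 0.42 and Ifi27l2a at -0.02 ± 0.15. By orientation, Ifit3 was at -0.31 in Cy5 and 0.32 in Cy3, Oas2 at -0.34 and 0.31, and Ifi27l2a at 0.15 and -0.18. Isg20, an RNA exonuclease, was at -0.14 ± 0.07 while Rsad2, or viperin, at 0.14 ± 1.02 and Oas1a at 0.49 ± 1.48 varied widely between mice. Trim12a was highest at 0.99 ± 1.21. Ifi27, a mitochondrial protein in man, was at -0.49 ± 0.26 (adjusted p = 0.906 in limma) and did not pass the unadjusted threshold with any 1 mouse left out.

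The relatives of Ifitm3 had low ratios too. Ifitm2 was at 0.18 or below on the Cy5 arrays, with -0.26, -0.09, 0.07 and 0.18 in mice 1 to 4, and at -1.39, -1.14, -1.14 and -2.23 on the Cy3 arrays. It therefore had the tilt of Ifitm3, with a mean of -0.75 ± 0.22 (SD, n = 4 mice; adjusted p = 0.75 in limma). Ifitm1 had -0.56, 0.16, -0.01 and -1.63 on the Cy5 arrays and -1.05, -1.02, -1.16 and -1.77 on the Cy3 arrays. It was below 0 on 7 of 8 arrays, with a mean of -0.88 ± 0.57 (adjusted p = 0.906), and it did not pass the unadjusted threshold without mouse 1. Ifitm10, which is not known as an interferon target, was at -0.42 ± 0.16 (adjusted p = 0.906). Its sign turned, from -1.24 on the Cy5 arrays to 0.39 on the Cy3 arrays, and it did not pass with any 1 mouse left out. So 3 of 3 other measured Ifitm genes were lower at an unadjusted p under 0.05, beside 3.09% of features, and 0 passed an adjusted p. Ifitm1, Ifitm2 and Ifitm3 are alike in sequence, and how far their spots bind each other's cDNA was not tested.

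Of 10 relatives of Ly6e with the same fold, 1 (10%) was lower at an unadjusted p under 0.05 and 0 higher. Over all features, 3.09% were lower and 2.15% higher. The median of the 10 was 0.01. The lower gene was Lypd3 at -0.43 ± 0.25 (SD, n = 4 mice; adjusted p = 0.906 in limma), with means of -0.92 in Cy5 and 0.06 in Cy3. Ly6d, a marker of early B cells, was at -0.32 ± 0.56, Ly6m at -0.17 ± 0.999 and Ly6k, of the testis, highest at 0.23 ± 0.54. Ly6g5b was at 0.07 ± 0.12. The complement inhibitors Cd59a and Cd59b were at -0.09 ± 0.37 and 0.02 ± 0.12. Slurp1, Lynx1 and Lypd1, which bind nicotinic receptors, were at -0.01, 0.10 and 0.17. Ly6e was thus the lowest measured gene of its family in Eps8KO liver, a rank that its choice by ratio helps to set.

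Of 17 genes of antigen presentation, which interferon gamma raises, 1 (5.88%) was lower and 0 higher at an unadjusted p under 0.05. Over all features, 3.09% were lower and 2.15% higher. The median of the 17 was -0.01. Cd74, the invariant chain of MHC class II, was at -0.995 ± 0.32 (SD, n = 4 mice; adjusted p = 0.655 in limma), and 7 of 8 arrays were below 0. On the Cy5 arrays it was at -1.58, -0.26, -1.94 and -0.53 and on the Cy3 arrays at 0.19, -0.9997, -0.87 and -1.29 in mice 1 to 4. The class II genes H2-Ab1 and H2-Eb1 were at -0.65 ± 2.20 and 0.23 ± 0.56. The class I gene H2-K1 and its light chain B2m were at -0.14 ± 0.48 and 0.06 ± 0.27. Of the immunoproteasome, Psmb9 was at -0.79 ± 1.08, Psmb8 at -0.10 ± 0.16 and Psmb10, the highest of the list, at 0.59 ± 0.65. Tgtp1, a GTPase induced by interferon gamma, was at -1.21 ± 0.60 (adjusted p = 0.838) with values on 7 of 8 arrays, 5 of them below 0. It was the sole GTPase of its list with a value in all mice.

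**Figure D4:**
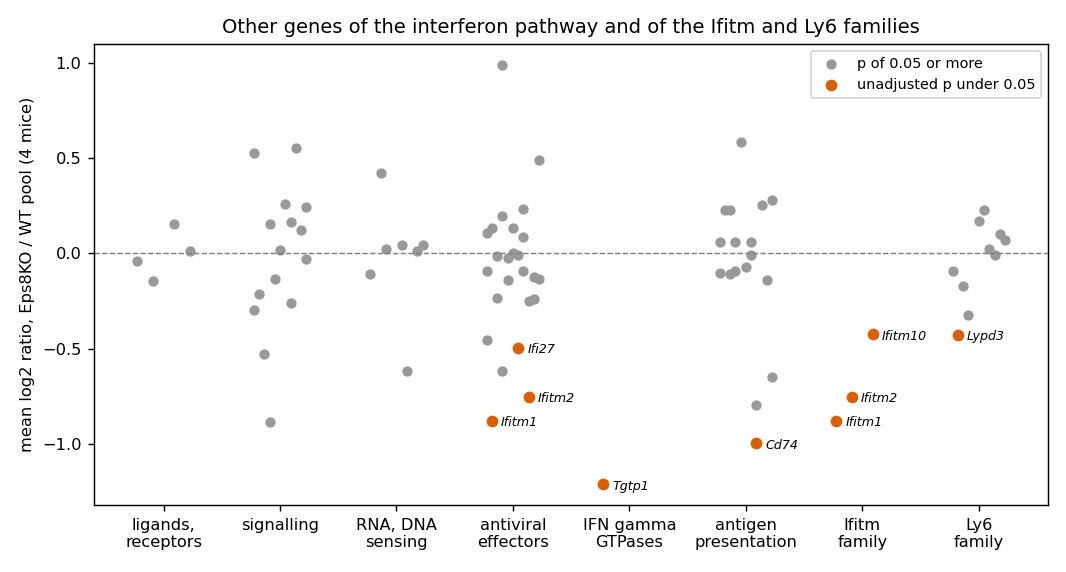
Mean log2 ratio of Eps8KO over WT pool in 4 mice (y axis) for the other genes of the interferon lists and the Ifitm and Ly6 families (x axis), with 1 point per gene. Orange points have an unadjusted p under 0.05 in limma, grey points do not, and Ifitm1 and Ifitm2 appear both as effectors and as family members. The orange points all lie below 0, and the other genes scatter on both sides of it.

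Few markers of other liver cells passed the unadjusted threshold, as few of all features did. At an unadjusted p under 0.05 in limma, 0 of 9 macrophage and Kupffer cell markers were lower, 0 of 9 lymphocyte markers, 0 of 4 markers of plasmacytoid dendritic cells, 0 of 6 endothelial and 0 of 6 stellate cell markers. Their median ratios were 0.05, 0.13, -0.15, -0.28 and -0.11. Over all features, 3.09% were lower and 2.15% higher at that threshold, so 0 in such short lists says little about these cells. C1qa, a complement chain of macrophages, was lowest of its list at -0.56 ± 0.50 (SD, n = 4 mice) and Cd5l highest at 1.01 ± 2.17. Cd3d and Cd52 of lymphocytes were at -1.24 ± 1.89 and 0.42 ± 0.65, Irf8 and Cox6a2 of plasmacytoid dendritic cells at -0.53 ± 1.05 and 0.14 ± 0.26. Vwf and Eng of endothelium were at -1.57 ± 1.599 and 0.07 ± 0.17, and Pdgfrb and Reln of stellate cells at -0.40 ± 1.27 and 0.34 ± 0.21. Of the 6 endothelial markers 4 had a mean below 0, among them Kdr at -1.04 ± 1.16 and Pecam1 at -0.44 ± 0.50. Of 8 neutrophil markers, Lcn2 alone was lower, at -2.14 ± 0.63, and Mpo was highest at 0.08 ± 0.57. Of 5 bile duct markers Krt7 alone was lower, at -1.51 ± 0.40 with values on 4 arrays, and Krt19 was highest at 0.14 ± 0.20. Lcn2 is also an acute phase gene of hepatocytes. Of 3 red blood cell markers none was lower, from Alas2 at -0.00 ± 0.07 to Slc4a1 at 0.59 ± 0.50. Of 14 hepatocyte markers 1 was higher and 0 lower, from Trf at -0.58 ± 0.74 to Rbp4 at 0.87 ± 2.78. The part of these cells in the ratios of the 4 genes was not tested.

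The genes most like each of the 4 were sought by the root mean square difference of the log2 ratios over the 8 arrays, among 6564 other named genes measured on all of them. For Dhx58 these were Akr1b8, an aldo-keto reductase, at a difference of 0.54, and the acute phase genes Orm1 at 0.58 and Hp at 0.71. On the Cy5 and Cy3 arrays Orm1 had means of -1.78 and -3.49, and Dhx58 of -1.62 and -3.19. For Ly6e they were Calr, a calcium-binding chaperone of the endoplasmic reticulum, at 0.19, Grn, a secreted growth factor of lysosomes, at 0.21, and Ambp, a precursor of plasma proteins, at 0.22. For Bst2 they were Tram1, Serp1 and Yipf5, which act in protein entry to, stability in and transport from the endoplasmic reticulum, at 0.11, 0.16 and 0.18. For Ifitm3 they were Serping1, the inhibitor of complement C1, at 0.24, Clu, a secreted chaperone, at 0.25 and Apom, an apolipoprotein, at 0.26. None of the 12 neighbours was another of the 4 genes, but with 3 places among 6564 genes this says little about how alike the 4 are. The closest pair among the 4 was Ly6e and Ifitm3, with a difference of 0.39, and Dhx58 differed from the others by 1.83 to 2.12. The arrays share the WT pool and the dyes, so such likeness also holds what those contribute.

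Acute phase genes, which interleukin 6 raises in hepatocytes, were the list nearest to Dhx58. Their median log2 ratio was -1.65, and 16 of 20 were lower and 0 higher at an unadjusted p under 0.05 in limma. The shift behind the row names was found through low ratios of such genes. This median and count therefore cannot test whether the list is lower, and they are given as a description. On the Cy5 arrays the median of the acute phase genes was -0.93 and on the Cy3 arrays -2.17. Dhx58 lay below both medians, whereas Ly6e, Bst2 and Ifitm3 lay above both. Whether the 4 genes differ from this list was not tested, since both were chosen or named with these ratios in view.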

How the data were processed

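The deposited values are log2 ratios of 2 dyes per spot. Per the methods, the authors used MIDAS to scale total intensity until the log2 ratios averaged 0, to check both channels against background, and to filter by bad tolerance and flipped dyes. Whether the deposited values follow these steps is not stated. The 8 arrays held 17968 to 18802 values, with medians from -0.28 to -0.08 and means from -0.39 to -0.18, so their centring is unknown. Precision is limited by how many arrays there are. Each of the 8 value columns entered.

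Rows were named by probe number equal to row number plus 32. All 12398 probes had 1 symbol, matched by gene ID to RefSeq (GRCm38.p6, names alone), and 7988 rows stayed unnamed. Signs were turned where Eps8KO RNA was in Cy3, then arrays of a mouse and spots of a gene were averaged. A spot with a value on 1 array of a mouse entered with that array alone, so its dye difference does not cancel. Genes so affected include Irf1, Irf4, Stat2, Traf6, Dhx30, Trim12a, Tgtp1, H2-Ab1, Psmb10, Ly6k and Ly6m. Others are C1qa, Cd5l, Cd3d, Kdr, Krt7, Pdgfrb and Rbp4. Each feature measured in 4 of 4 mice was set against 0 by limma 3.58.1 (lmFit, eBayes; R 4.3.3), two-sided with Benjamini-Hochberg adjustment, in place of SAM, whose settings the methods do not give. The fit was tested on simulated data. Sequences and figures used Python 3.11.15 and Matplotlib 3.10.9.

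The members, gene lists and tests were chosen with earlier results of these data known. Named are the 4 genes, genes of each interferon list with an unadjusted p under 0.05, the lowest and highest of each list, the measured Ifitm and Ly6 genes, 3 neighbours per gene and the lowest and highest marker of each cell type. Others, such as Irf9, Ifit3, Oas2, Trim25, B2m, Apoa1 and Dhx30, were named after their values were seen. Alternatives were array medians at 0, 1 dye orientation, the median of spots, spots or features on all 8 arrays, values at an array's highest left out, a dye term, naming without the shift, 1.6-fold and each mouse left out.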

Additional observations from a re-analysis of the deposited data

Results flagged for a closer look

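Ifitm3 was above 0 on all 4 arrays with Eps8KO RNA in Cy5 and below 0 on all 4 with it in Cy3, and the means of the 2 orientations differed by 1.88 on the log2 scale. The same contrast was tested with limma as the dye difference of Ifitm3. That is a mean of the 2 deposited ratios of a mouse, at 0.94, and its adjusted p was 0.0524. The dye difference of Ifitm2 had 1 mouse far from the others. It was 0.57, 0.52 and 0.60 in mice 1 to 3 and 1.21 in mouse 4, a gap of 0.883 of the range, more than Dixon's test allows for 4 samples. Chance gives such a gap in about 1 of 20 groups, and 11 genes were looked at, each for its ratio and, where both arrays of every mouse had a value, its dye difference.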

How the results depend on the processing

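The ratios of the 4 genes differed between the dye orientations. Taking Cy5-labelled Eps8KO RNA alone, the log2 ratio was -1.62 for Dhx58, 0.0825 for Ly6e, 0.0523 for Bst2 and 0.52 for Ifitm3. With it in Cy3 alone, it was -3.19, -1.41, -0.91 and -1.36. With names put on the rows without the shift, it was 0.76, -0.10, 0.0406 and -0.15, from other spots. Centred arrays, the median of spots, spots on all 8 arrays, array highest values left out and each mouse left out moved none of the 4 by more than 1 SD.

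Over all features limma on 4 mice called none in either direction after adjustment. Adding a dye term and the mouse as a block called 5 higher and 30 lower, the Cy3 arrays alone 3 and 8 and features on all 8 arrays 8 lower. By 1.6-fold with an unadjusted p under 0.05, 164 were higher and 243 lower. For the other interferon genes, of which 5 were lower and 0 higher without adjustment, the fit with dye term and block gave 2 higher (3.92%, beside 2.8% of all features), the Cy5 arrays alone 4 higher and 3 lower (6.9% and 5.17%, beside 4.66% and 12.6%) and the Cy3 arrays alone 7 and 10 (11.7% and 16.7%, beside 14.7% and 6.94%). Leaving out 1 mouse gave 0 to 1 higher (1 without mouse 2 or mouse 3) and 3 to 5 lower (3 without mouse 1). Ifitm10 turned to 0.39 on the Cy3 arrays.

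In the fit with a dye term, which also took 8 arrays in place of 4 mouse means and 11727 features in place of 11686, the dye difference of Ly6e (0.74), Bst2 (0.48) and Ifitm3 (0.94) had an adjusted p of 0.011, 0.0311 and 0.00824. With array highest values left out, those of Ly6e (0.74) and Ifitm3 (0.94) came to 0.044. The cause of these changes was not tested. Signal over background is not known.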
